A study of Mus musculus with 18 samples.

Results

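Myosin light chain phosphorylation is set by kinases and by 1 phosphatase complex, and 10 of their genes are described here across the 6 groups of a fetal kidney experiment. The genes were chosen by name: Mylk, Rock1 and Rock2, which are the knockdown targets, the related kinase genes Dapk3, Cdc42bpa and Cdc42bpb, and the phosphatase genes Ppp1cb, Ppp1r12a, Ppp1r12b and Ppp1r14a. They are 10 of the 78317 genes of the table, and each of the 10 is among the 16544 genes with enough counts to be tested. The question is whether the related kinases or the phosphatase shifted when Mylk or Rock1 and Rock2 were targeted.

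All kidneys came from wild-type CD1 mice, an outbred stock, at embryonic day 14. They were exposed for 4 hours to AAV2, a gene delivery virus, embedded in a gel of collagen I and Matrigel, and cultured for 72 hours. Every vector, the control included, drove the red fluorescent protein mCherry from the CAG promoter, which is active in most cell types, ahead of 2 hairpin cassettes in a mir30 backbone. Mylk-shRNA aimed at 2 regions of Mylk, Rock1/2-shRNA at 1 region each of Rock1 and Rock2, and scramble-shRNA carried shuffled Rock1 and Rock2 sequences. Cultures of a vector were pooled, digested and sorted into the top 25% of mCherry signal (positive) and the bottom 50% (negative), so both fractions of a vector and litter come from 1 pool of cells. The 3 vectors and 2 fractions give 6 groups, with 3 libraries each, from litters 1, 2 and 3. Groups are called by their labels throughout.

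A contraction of the actomyosin network starts when the regulatory light chain of myosin II is phosphorylated. Myosin light chain kinase, the product of Mylk, does this when calcium-bound calmodulin activates it, while the kinases ROCK1 and ROCK2 phosphorylate the light chain and also inhibit the phosphatase. The phosphatase joins a catalytic subunit (Ppp1cb) to a targeting subunit (Ppp1r12a or Ppp1r12b), and the small protein CPI-17 (Ppp1r14a) blocks it when phosphorylated. In the fetal kidney such contractility is known from smooth muscle and stroma and from the shape changes of tubule epithelium.

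An annotated transcript start of Mylk and of Ppp1r14a is shown because these genes are the members with the largest differences between fractions, in opposite directions. Each sequence is the RefSeq window of assembly GRCm38.p6 from 250 bases before to 50 after an annotated start, 5′ to 3′, and capitals mark GGGCGG, the core of a GC box, or its reverse complement CCGCCC. This assembly differs from the one the counts were made on.
Ppp1r14a, chr7:29289070-29289369, plus strand: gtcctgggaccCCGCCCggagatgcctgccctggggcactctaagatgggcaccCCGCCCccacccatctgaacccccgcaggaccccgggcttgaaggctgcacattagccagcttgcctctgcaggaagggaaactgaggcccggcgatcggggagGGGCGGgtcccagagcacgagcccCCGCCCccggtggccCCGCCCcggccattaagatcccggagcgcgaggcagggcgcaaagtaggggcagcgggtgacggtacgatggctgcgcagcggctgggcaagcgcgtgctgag
Mylk, chr16:34784700-34784999, plus strand: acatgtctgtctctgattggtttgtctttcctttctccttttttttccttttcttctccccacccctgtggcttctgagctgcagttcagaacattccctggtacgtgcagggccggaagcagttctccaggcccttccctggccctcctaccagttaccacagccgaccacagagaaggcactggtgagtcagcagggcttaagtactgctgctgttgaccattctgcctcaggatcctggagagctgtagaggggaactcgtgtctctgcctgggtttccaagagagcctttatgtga
In the GENCODE annotation of the same assembly the Ppp1r14a window holds the start of 2 of the gene's 2 transcripts, and the Mylk window, inside a gene annotated from 34745210 to 35002420, that of 1 of 8. The Ppp1r14a window is 71.3% G and C and holds 5 GC-box matches, while that of Mylk is 53.3% G and C, near the median of 52.7% over 32851 windows, and holds none. Over all windows 35.7% hold the motif. Of the 10 genes 9 have windows in the table, 13 in all, and 8 windows of 7 genes hold the motif on either strand. Neither TATAAA (13.6% of all windows) nor the CArG box, the site of serum response factor (1.63%), is found in any of the 13.

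Library totals ran from 3121624 to 12170830 estimated counts. Litter 3 had 3.95 to 9.16% of its counts on mitochondrial genes, against 2.01 to 4.02% in litters 1 and 2. Markers of 11 kidney and blood cell types were read beside the results, and no marker was at 0 in every library. In the fits described below 0 of 16544 genes passed in any comparison between vectors, while 5558 genes differed between fractions, so the 10 genes are read against those backgrounds. Values are the deposited CPM, which is each gene's share of a library scaled to a fixed total, and levels are not compared between genes. Each replicate was 1 litter, whose cultures of a vector were pooled before sorting. Such a pool is called a culture below. In such bulk samples fewer cells of a type and less RNA per cell cannot be told apart.

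Mylk was higher in the sorted positive cells than in the negative cells of every culture, and its level with Mylk-shRNA did not differ detectably from the control. In litters 1, 2 and 3, positive cells had 211, 181 and 198 CPM with scramble-shRNA, 169, 187 and 168 CPM with Mylk-shRNA, and 223, 177 and 151 CPM with Rock1/2-shRNA. Negative cells had 73.7, 57.8 and 75.8 CPM, 75.5, 59.1 and 86.3 CPM, and 63.9, 63.4 and 66.8 CPM with the same vectors. The lowest of the 9 positive libraries thus lay above the highest of the 9 negative ones. Of the genes tested, 8.72% are separated in one direction or the other. Within each fraction the 3 vectors overlapped.

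**Figure D1:**
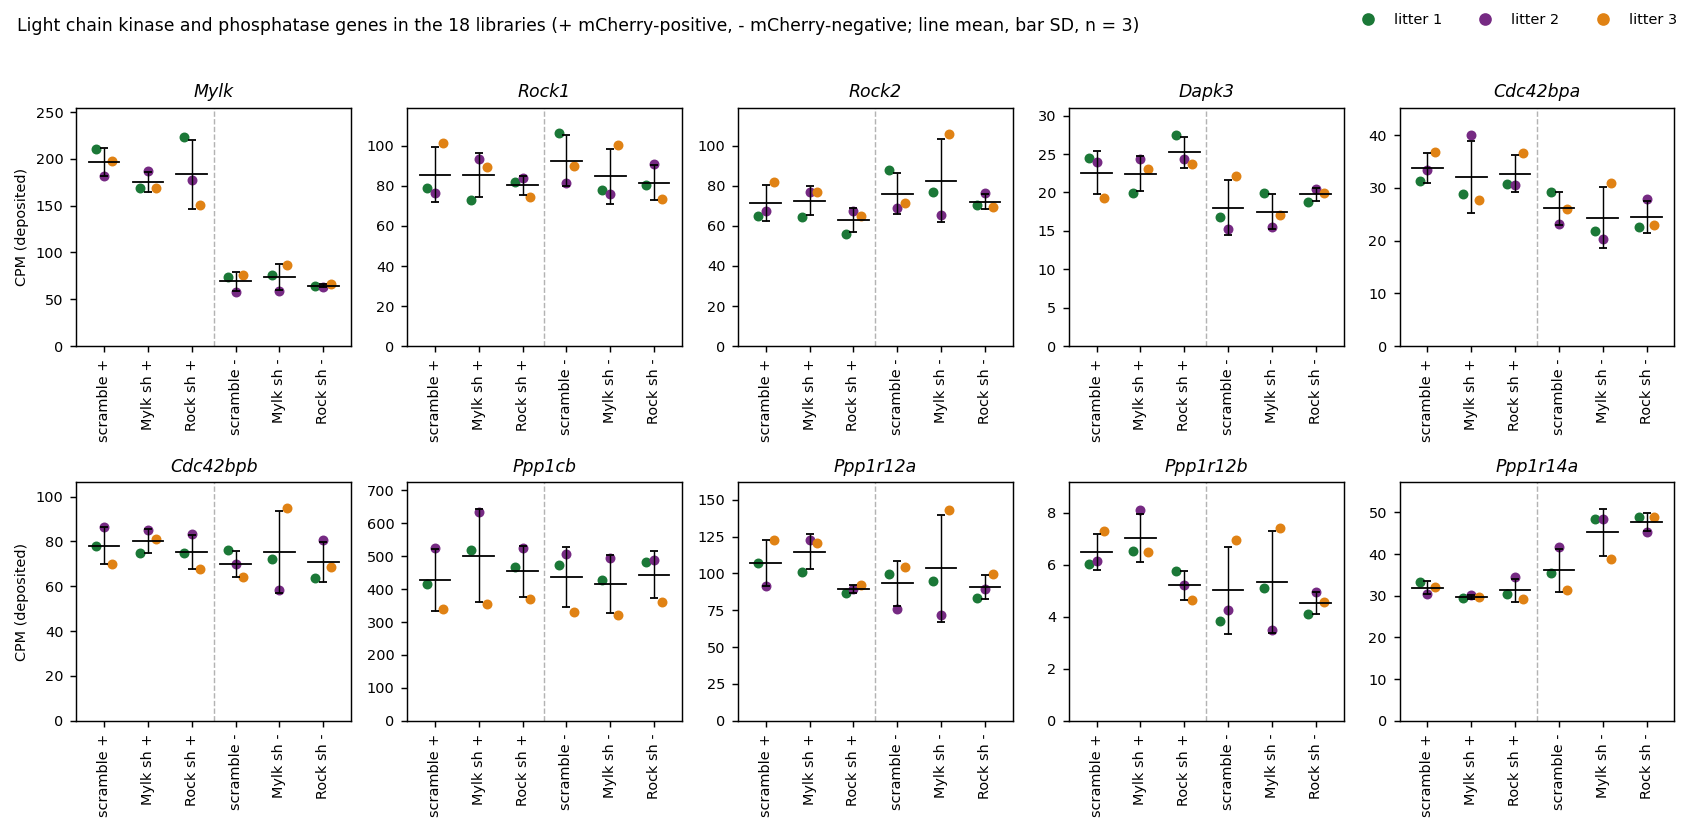
Each panel plots 1 gene: deposited CPM (vertical axis, from 0) for the 6 groups, with + for mCherry-positive and - for mCherry-negative cells. Points are single libraries coloured by litter, lines are group means and bars are SDs (n = 3). Mylk forms 2 separate levels, 151 to 223 CPM in positive and 57.8 to 86.3 CPM in negative cells, while the other genes overlap between fractions.

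By the model fitted with edgeR to all 18 libraries, Mylk stood 2.58-fold higher in positive than in negative cells over the 3 vectors (95% interval 2.28 to 2.92, adjusted p = 6.2e-10). The ratio within a culture ran from 1.95 to 3.49 and was above 1 in 9 of 9. It was 2.76-fold with scramble-shRNA (adjusted p = 2.5e-06), 2.28-fold with Mylk-shRNA (adjusted p = 2.1e-05) and 2.74-fold with Rock1/2-shRNA (adjusted p = 2.7e-06) by the same edgeR test. The test of the difference between the Mylk-shRNA and the control ratio gave a log2 value of -0.28 (SE 0.21), and that for Rock1/2-shRNA gave -0.01 (SE 0.21), neither past the threshold (adjusted p = 1.00 for both in edgeR).

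Markers of smooth muscle and stroma moved with Mylk. The 12 smooth muscle markers summed to 430 to 1094 CPM in positive and 210 to 319 CPM in negative libraries, and 9 of the 11 tested rose while Des fell. The 10 stromal markers summed to 4780 to 8079 CPM against 3136 to 3859 CPM, and all 10 rose. Macrophage markers rose too, 7 of 7, from 5.60 to 14.8 CPM in negative to 151 to 340 CPM in positive libraries. So did 4 of 4 tested erythroid markers and 3 of 7 pericyte and renin cell markers. Over all genes 17.6% rose and 16.0% fell in this comparison. The part of these cell types in the Mylk difference was not tested.

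Among 10867 genes with a symbol and a mean of at least 5 CPM, the patterns most like that of Mylk over the 18 libraries belonged to Olfml3 (r = 0.988 of log2(CPM + 1)), Ogn (0.981), Adamts5 (0.981), Bgn (0.979) and Myl9 (0.979). Ogn and Bgn encode small proteoglycans of connective tissue, Adamts5 a matrix protease, and Myl9 a regulatory light chain that the kinase acts on. The 18 points share the fraction difference, the litters and the cultures. With group means taken off, close genes were Prpf3 (r = 0.901), Mcl1 (0.896), Cpne5 (0.889) and Tead1 (0.880).

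The targeted genes are the check on the vectors. With Mylk-shRNA, Mylk was fitted at 87.9% of the control level in positive cells (95% interval 71.3 to 108%) and at 106% in negative cells (86.0 to 132%), with an edgeR adjusted p of 1.00 in both. The lower bound of the interval in positive cells is a loss of transcript to 71.3% of control. Transcript was counted per gene, so isoforms of Mylk were not told apart. Between vectors in positive cells, 0 markers of stroma or smooth muscle passed the threshold. With Mylk-shRNA the median log2 fold changes were 0.23 for stroma (10 of 10 above 0) and 0.24 for smooth muscle (9 of 11). With Rock1/2-shRNA they were -0.06 (4 of 10) and -0.26 (2 of 11). The part of these cell types in the fitted levels of the targets was not tested.

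Rock1 and Rock2, the genes of the 2 ROCK kinases, varied between libraries, with no difference between vectors past the threshold. Rock1 in positive cells had 78.9, 76.5 and 101 CPM in litters 1 to 3 with scramble-shRNA, and 82.2, 83.9 and 74.7 CPM with Rock1/2-shRNA. Its negative cells had 106, 81.6 and 90.0 CPM with scramble-shRNA and 80.5, 90.9 and 73.6 CPM with Rock1/2-shRNA. Rock1 was higher with Rock1/2-shRNA than with the control in litters 1 and 2 of the positive cells and lower in litter 3. The fitted level was 94.1% of control in positive cells (interval 76.7 to 115%) and 88.0% in negative cells (72.0 to 107%).

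For Rock2 the positive cells had 65.0, 67.5 and 81.9 CPM with scramble-shRNA and 56.2, 67.7 and 65.0 CPM with Rock1/2-shRNA. The negative cells had 88.1, 68.8 and 71.5 CPM and 70.4, 76.3 and 69.3 CPM with these vectors. The groups overlapped in both fractions. The fitted level was 88.7% (interval 70.8 to 111%) in positive and 94.5% (76.0 to 118%) in negative cells. With Mylk-shRNA, Rock1 stood at 98.5% and Rock2 at 100.5% of control in positive cells, with intervals of 80.3 to 121% and 80.3 to 126%.

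Rock2 tended to the opposite side from Mylk between fractions: its positive-to-negative ratio was below 1 in 7 of 9 cultures (0.726 to 1.18). The fitted ratio of 0.865 (interval 0.761 to 0.983) missed the threshold in edgeR (adjusted p = 0.0763), and passed it with litter as a block (adjusted p = 0.0199). Rock1 had a ratio of 0.934 (0.831 to 1.05, adjusted p = 0.377), with 5 of 9 cultures below 1.

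Dapk3 and Cdc42bpa rose in positive cells by a smaller amount than Mylk. Dapk3 encodes zipper-interacting kinase, which phosphorylates the light chain and the targeting subunit, and Cdc42bpa and Cdc42bpb encode the MRCK kinases, which act downstream of Cdc42. Dapk3 had 24.5, 23.9 and 19.3 CPM in positive cells and 16.8, 15.2 and 22.1 CPM in negative cells of scramble-shRNA, so that litter 3 alone had more in the negative cells. Over the 3 vectors Dapk3 was 1.23-fold higher (interval 1.08 to 1.40, edgeR adjusted p = 0.0123), with a ratio above 1 in 7 of 9 cultures, but it missed the threshold without a filter on low counts (adjusted p = 0.0669).

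Cdc42bpa had 31.2, 33.4 and 36.8 CPM in positive and 29.3, 23.1 and 26.0 CPM in negative cells with scramble-shRNA. Here each litter had more in the positive cells. It was 1.27-fold higher over the 3 vectors (interval 1.11 to 1.46, edgeR adjusted p = 0.00786) and above 1 in 8 of 9 cultures, the exception being Mylk-shRNA in litter 3 with a ratio of 0.892. Cdc42bpb stood at 1.05-fold (0.929 to 1.18, adjusted p = 0.589).

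For single vectors neither Dapk3 nor Cdc42bpa passed the threshold in edgeR. Without litter 3, Dapk3 passed with scramble-shRNA (log2 fold change 0.57 against 0.32 with all litters, adjusted p = 0.0175), and Cdc42bpa passed with Mylk-shRNA (0.59 against 0.35, adjusted p = 0.0209). The same 2 calls appeared when the litter 3 negative library of the vector was left out (adjusted p = 0.0318 and 0.0248).

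**Figure D2:**
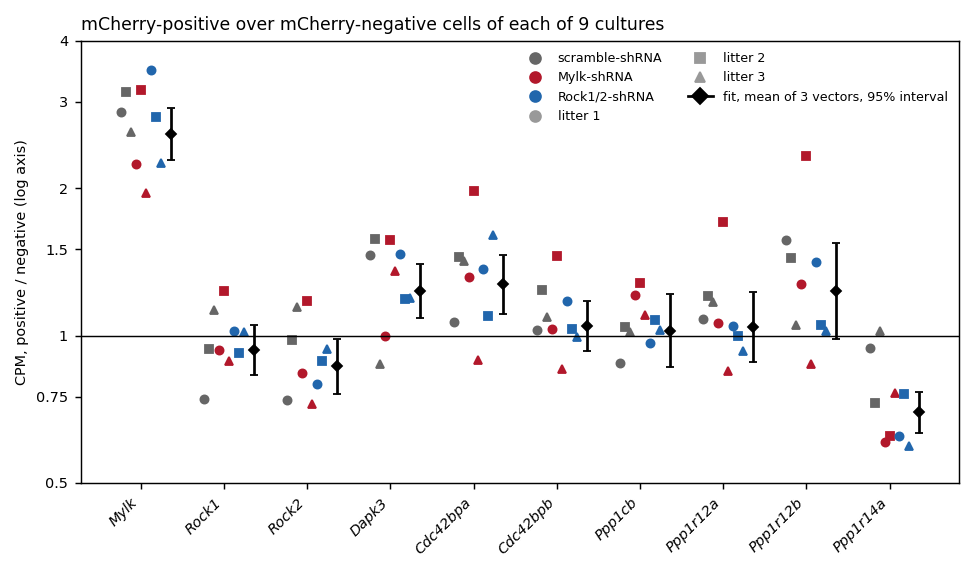
For each gene, points give the ratio of CPM in mCherry-positive to mCherry-negative cells (log axis) in each of 9 cultures, coloured by vector and shaped by litter, and diamonds give the fitted ratio over the 3 vectors with its 95% interval. Mylk lies at 1.95 to 3.49 in all 9 cultures and Ppp1r14a below 1 in 8 of 9.

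The catalytic subunit gene Ppp1cb was lowest in litter 3 of every group and passed the threshold neither between vectors nor between fractions. In litters 1, 2 and 3 it had 415, 526 and 338 CPM in positive cells of scramble-shRNA, 519, 633 and 354 CPM with Mylk-shRNA, and 468, 524 and 371 CPM with Rock1/2-shRNA. In negative cells it had 473, 506 and 332 CPM, 428, 495 and 322 CPM, and 484, 488 and 362 CPM. Litter 3 was the lowest in 6 of 6 groups, at 0.614 to 0.748 times the mean of the other two litters. Between fractions Ppp1cb stood at 1.02-fold (interval 0.863 to 1.22, edgeR adjusted p = 0.858), and with Mylk-shRNA in positive cells at 115% of control (85.8 to 155%).

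Ppp1r12a, which encodes the main targeting subunit MYPT1, lay the other way by litter. Its positive cells had 107, 91.1 and 123 CPM with scramble-shRNA, 101, 122 and 121 CPM with Mylk-shRNA, and 86.8, 89.2 and 92.3 CPM with Rock1/2-shRNA. Its negative cells had 99.3, 75.6 and 105 CPM, 95.0, 71.9 and 143 CPM, and 83.1, 89.6 and 99.5 CPM. Litter 3 was above the mean of the other two in 6 of 6 groups, by 1.05 to 1.72 times. The share of mitochondrial counts was also highest in litter 3 in every group except scramble-shRNA positive, where litter 1 had 4.02% and litter 3 had 3.95%. The part of RNA quality or of the litter itself was not tested.

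Over deviations from the group means, Ppp1cb and Ppp1r12a correlated with r = -0.67 in 18 libraries and -0.32 in the 12 libraries of litters 1 and 2. Libraries of 1 litter share animals, and those of 1 culture share cells, so these points are not independent. Without litter 3 each group keeps only litters 1 and 2, whose deviations mirror each other. Each group then adds 1 difference, not separate points. Of the 45 pairs among the 10 genes, 29 correlated positively. Rock1 and Rock2 reached 0.847 (0.814 without litter 3), Rock2 and Ppp1r12a 0.816 (0.802), and Mylk and Dapk3 0.549 (0.818).

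**Figure D3:**
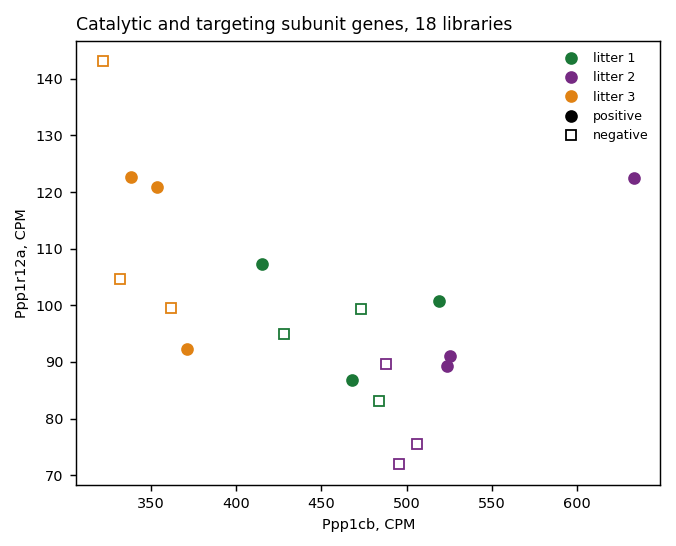
Ppp1r12a (vertical axis) against Ppp1cb (horizontal axis), both in CPM, in the 18 libraries, coloured by litter, with filled circles for positive and open squares for negative cells; the axes do not start at 0. The 6 libraries of litter 3 lie at the left, at 322 to 371 CPM of Ppp1cb.

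Ppp1r12b, which encodes the second targeting subunit MYPT2, had low counts, from 18 to 63 per library. In positive cells it had 6.04, 6.14 and 7.29 CPM with scramble-shRNA, 6.52, 8.10 and 6.48 CPM with Mylk-shRNA, and 5.77, 5.21 and 4.65 CPM with Rock1/2-shRNA. The Rock1/2-shRNA libraries lay below all 3 control libraries. In this comparison 4.76% of all genes are separated in one direction or the other. The fitted level was 80.7% of control with a wide interval of 53.8 to 121%.

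Between fractions Ppp1r12b was 1.23-fold higher in positive cells (interval 0.982 to 1.54, edgeR adjusted p = 0.153) and above 1 in 8 of 9 cultures. It passed the threshold with litter as a block (log2 fold change 0.33, adjusted p = 0.0486) and without litter 3 (0.47 against 0.30, adjusted p = 0.0177). Ppp1r12a stood at 1.04-fold (0.883 to 1.23, adjusted p = 0.739). Set against Rock1/2-shRNA directly in positive cells, Mylk-shRNA had 126% of Ppp1r12a (interval 94.7 to 169%) and 133% of Ppp1r12b (89.1 to 199%), neither of them past the threshold.

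The inhibitor gene Ppp1r14a was lower in positive than in negative cells. In litters 1, 2 and 3 its positive cells had 33.4, 30.3 and 32.0 CPM with scramble-shRNA, 29.4, 30.3 and 29.6 CPM with Mylk-shRNA, and 30.4, 34.4 and 29.1 CPM with Rock1/2-shRNA. Its negative cells had 35.4, 41.7 and 31.4 CPM, 48.5, 48.5 and 38.7 CPM, and 48.9, 45.3 and 49.0 CPM. Between vectors, the 3 Mylk-shRNA positive libraries lay below the 3 controls, as 6.44% of all genes do in one direction or the other. The margin was narrow, with 30.26 CPM in the highest of them and 30.33 CPM in the lowest control. The fitted level was 92.2% of control (interval 77.3 to 110%). None of the 10 genes was separated in negative cells of Mylk-shRNA (4.42% of all genes). Over the 3 vectors the positive cells held 0.697 times the negative level (interval 0.631 to 0.768, edgeR adjusted p = 6.8e-06), and the ratio was below 1 in 8 of 9 cultures (0.594 to 1.02).

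By vector, the ratio was 0.847 with scramble-shRNA (edgeR adjusted p = 0.218), 0.625 with Mylk-shRNA (adjusted p = 5.6e-04) and 0.638 with Rock1/2-shRNA (adjusted p = 9.4e-04). The difference from the control ratio gave log2 values of -0.44 (SE 0.17) for Mylk-shRNA and -0.41 (SE 0.17) for Rock1/2-shRNA, and neither passed after adjustment over all genes (edgeR adjusted p = 1.00 for both). In negative cells Ppp1r14a was fitted at 125% of control with Mylk-shRNA (interval 106 to 147%) and at 131% with Rock1/2-shRNA (111 to 155%). These single-gene intervals leave out 100%, but both differences failed the adjustment over all genes (edgeR adjusted p = 1.00). The 3 Rock1/2-shRNA negative libraries lay above the 3 controls, as 4.43% of all genes do in one direction or the other. These tests share the scramble-shRNA negative libraries, so they are not separate evidence.

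Markers of early nephron structures, nephron progenitors and the ureteric bud were lower in positive cells with Ppp1r14a, while those of proximal tubule and podocyte were mixed. The 7 markers of early nephron structures summed to 365 to 452 CPM in positive and 724 to 1263 CPM in negative libraries, and 7 of 7 fell. For the ureteric bud and collecting duct the sums were 55.1 to 92.9 against 89.5 to 151 CPM, and 6 of 8 fell. Of 8 nephron progenitor markers 7 fell, of 6 proximal tubule markers 1 fell and none rose, of 4 podocyte markers 2 rose and 2 fell, and of 8 endothelial markers 5 fell and 2 rose. Among all genes 16.0% fell and 17.6% rose between fractions. Between vectors in negative cells, 0 markers of any list passed the threshold. The median log2 fold changes there with Mylk-shRNA and Rock1/2-shRNA were 0.37 and 0.17 for endothelium and 0.19 and 1.00 for erythroid cells, with every tested marker (8 and 4) above 0 in both. The medians were -0.30 and -0.12 for nephron progenitors, with 0 of 8 above 0 in both, and 0.26 (5 of 6 above 0) and 0.32 (6 of 6) for proximal tubule. Early nephron structures had -0.02 (3 of 7 above 0) and -0.01 (2 of 7). The ureteric bud and collecting duct had -0.02 (3 of 8) and 0.05 (5 of 8). Pericyte and renin cells had 0.20 (7 of 7) and 0.17 (6 of 7). Smooth muscle had 0.15 (8 of 11) and -0.10 (3 of 11), and stroma 0.07 (9 of 10) and -0.08 (3 of 10). For macrophages the values were 0.35 (4 of 7) and 0.13 (4 of 7), and for podocytes 0.22 (3 of 4) and 0.02 (2 of 4). The part of these cell types in the Ppp1r14a differences was not tested.

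The patterns most like that of Ppp1r14a over the 18 libraries were those of C1qtnf12 (r = 0.893), Hip1r (0.886), Svopl (0.881), Timm21 (0.880) and Grb7 (0.880). Ppp1r14a and Mylk correlated with r = -0.82 over the 18 libraries and with r = -0.43 once group means were taken off.

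Across the comparison of fractions, 4 of the 10 genes passed the threshold over the 3 vectors, with Mylk, Dapk3 and Cdc42bpa higher and Ppp1r14a lower, where 33.6% of all genes passed (17.6% higher and 16.0% lower). With litter as a block 6 of 10 passed, Rock2 and Ppp1r12b being added, where 45.8% of all genes did. The median log2 fold change of the 10 was 0.06 and that of all genes -0.03. For single vectors Mylk alone passed with scramble-shRNA, where 12.3% of all genes did (7.43% higher and 4.85% lower). With Mylk-shRNA it was Mylk and Ppp1r14a, where 13.2% of all genes passed (8.07% higher and 5.14% lower). The same 2 genes passed with Rock1/2-shRNA, where 11.2% did (6.94% higher and 4.30% lower). The share of the 10 genes was thus near the background in each.

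For the question of compensation, 0 of the 10 genes passed in each of the 4 comparisons of a knockdown vector with scramble-shRNA, by edgeR and by DESeq2, and 0% of all 16544 genes did. The 10 include the targets Mylk, Rock1 and Rock2, for which no loss of transcript was detected. These comparisons therefore cannot show whether a loss of the targets is compensated. At an unadjusted p under 0.05 in edgeR stood Ppp1r14a in the 2 negative comparisons, none of the 10 in the positive ones, and 258 and 285 of all genes with Mylk-shRNA and 145 and 200 with Rock1/2-shRNA (positive and negative cells). By DESeq2 these counts over all genes were 154, 219, 79 and 152. With litter as a block in edgeR they were 663, 1050, 352 and 644, again with 0 genes past the threshold. The 10 genes stood at 87.9 to 115% of control with Mylk-shRNA and 80.7 to 110.0% with Rock1/2-shRNA in positive cells, and at 91.3 to 125% and 88.0 to 131% in negative cells. Their 95% intervals reached from 53.8% at the lowest to 159% at the highest, and 38 of the 40 included no change. These intervals come from the fit without a term for litter, so they do not use the pairing of samples.

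**Figure D4:**
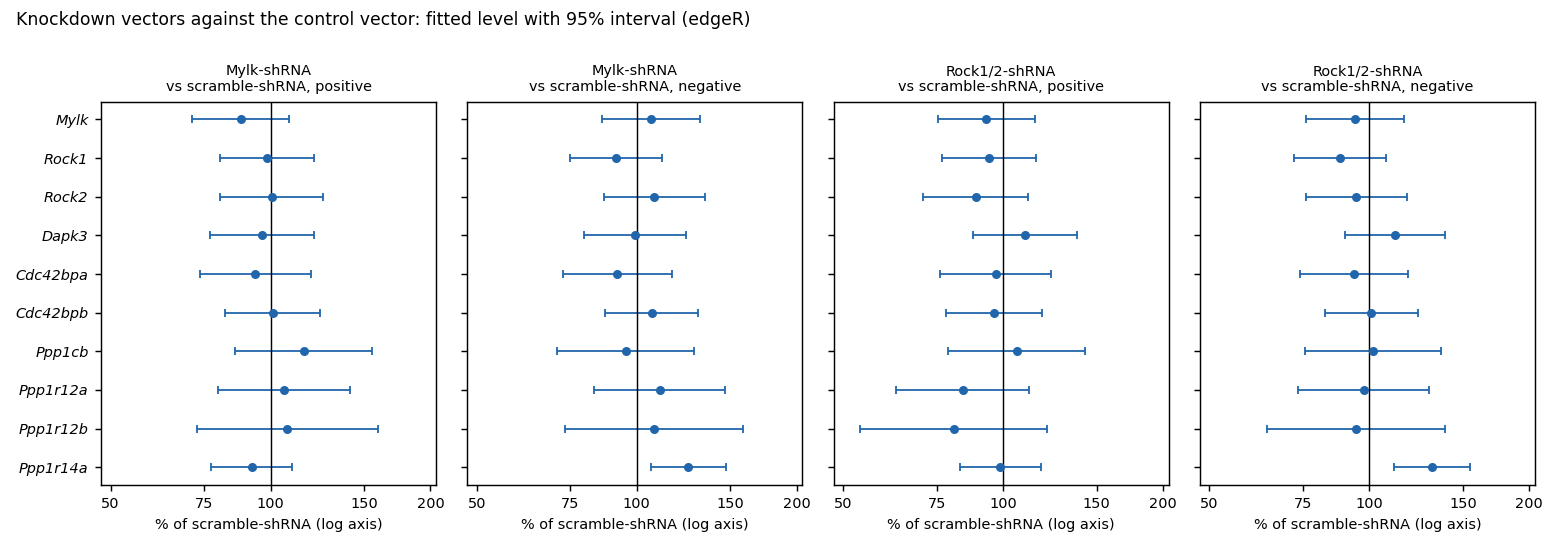
Fitted level of each gene as a percent of scramble-shRNA (log axis) with its 95% interval, for Mylk-shRNA and Rock1/2-shRNA in positive and negative cells (edgeR, 18 libraries). All intervals cross 100% except those of Ppp1r14a in negative cells, at 125% and 131%.

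Direct comparison of Mylk-shRNA with Rock1/2-shRNA likewise gave 0 of 10 genes and 0% of all genes in either fraction, where an unadjusted p under 0.05 was reached by 199 and 121 genes in edgeR by 477 and 534 in edgeR with litter as a block, and by 100 and 71 in DESeq2. The tests of whether a vector's effect differed between fractions gave 0 of 10 and 0% for both vectors, where 217 and 145 genes reached an unadjusted p under 0.05 in edgeR (807 and 437 with litter as a block, 138 and 90 in DESeq2). Ppp1r14a was among those genes in both of these edgeR tests.

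Other genes of the pathway differed between fractions, and the counts below stand against 17.6% of all genes that rose in this comparison and 16.0% that fell. Of 8 myosin chain genes 4 rose in positive cells and none fell: Myh11, the smooth muscle heavy chain, 8.02-fold, Myl9 3.83-fold, the essential light chain gene Myl6 1.35-fold and Myh10 1.22-fold (edgeR, adjusted p up to 0.0220). Myh11 averaged 16.5, 19.3 and 10.6 CPM in positive cells with scramble-shRNA, Mylk-shRNA and Rock1/2-shRNA, and 2.50, 2.97 and 0.958 CPM in negative cells. Myh9 stood at 1.17-fold (adjusted p = 0.0665). Among the calmodulin genes, Calm3 rose 1.32-fold.

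Among the other light chain kinases, 10 of 13 had enough counts, and Stk17b, a relative of Dapk3, was the one that passed, 1.56-fold higher. Mylk2, Mylk3 and Mylk4, the paralogs of Mylk, did not pass the filter on low counts. Of 7 other phosphatase subunits and inhibitors 3 fell (16.0% of all genes did) and none rose: Ppp1r14c to 0.442, Ppp1r16b to 0.615 and Ppp1r14b to 0.788 times the negative level. Ppp1r14b and Ppp1r14c are relatives of Ppp1r14a. The other catalytic subunit genes, Ppp1ca and Ppp1cc, stood at 1.07-fold and 0.986-fold.

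Of 10 genes for kinases and adaptors acting on the phosphatase or its inhibitor, 3 rose and 2 fell, where 17.6% and 16.0% of all genes did. Prkg1, the cGMP-dependent kinase that activates the phosphatase, rose 1.86-fold, Ilk 1.28-fold and Prkce 1.19-fold, while Pkn3 fell to 0.678 and Pim1 to 0.833 times the negative level.

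**Figure D5:**
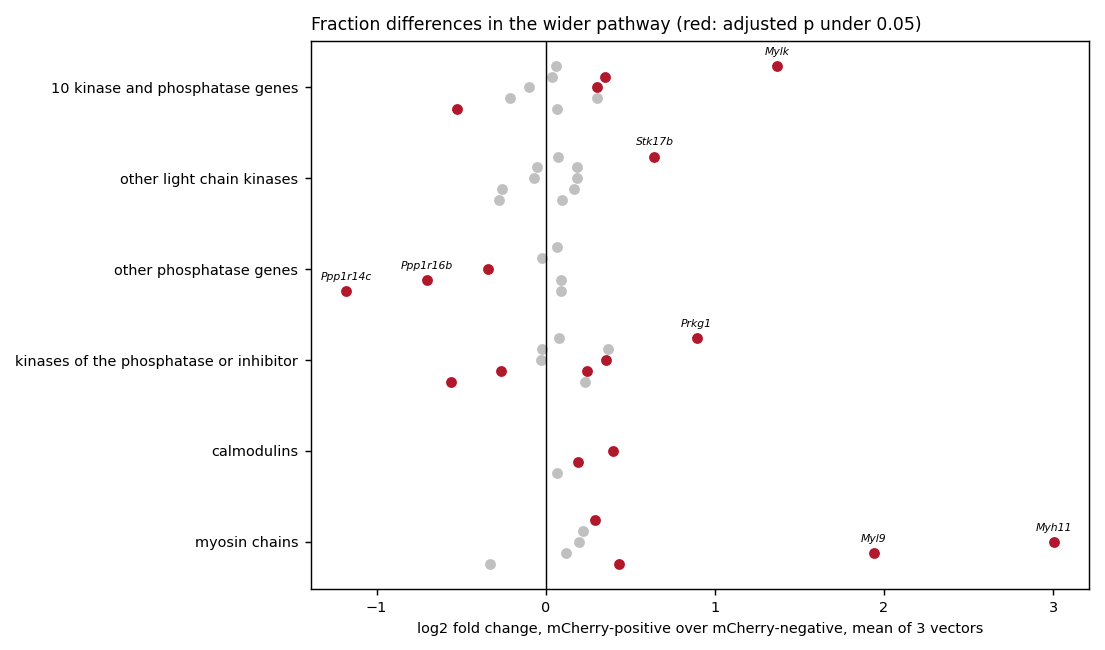
Log2 fold change between mCherry-positive and mCherry-negative cells over the 3 vectors (horizontal axis) for the 10 genes and 5 lists of the pathway, 1 point per tested gene, red where the edgeR adjusted p was under 0.05. Vertical offsets within a list carry no meaning. Myh11 (8.02-fold), Myl9 (3.83-fold) and Mylk (2.58-fold) lie farthest to the right.

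In the comparisons of knockdown vectors with scramble-shRNA, 0 of these 38 genes passed the threshold in edgeR in any of the 4. At an unadjusted p under 0.05 stood Ppp1r14c with Mylk-shRNA in positive cells, and none in the other 3 comparisons.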

How the data were processed

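Poly(A) RNA of 18 sorted libraries was measured (100 to 300 ng of RNA, tagmentation, per the labels' protocols). The authors deposited an estimated count and a CPM per gene and library, and the deposited CPM is the count divided by the library's sum, as checked. Per the submitters' processing notes, the tools included fastp 0.24.0, STAR 2.7.11 and featureCounts of Subread 2.1.1 with build GRCm39. The sources used here do not state the settings, the annotation, the use of strand or the sharing of multiply mapped reads.

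Counts were rounded, 92 spike-ins left out, and genes kept by edgeR's filterByExpr (minimum count 10, minimum total 15). The edgeR 4.0.16 quasi-likelihood test (TMM, robust, 6 group means, residual degrees of freedom 12, biological coefficient of variation 0.165 in common, R 4.3.3) was applied to 12 comparisons, with Benjamini-Hochberg adjustment over all 16544 genes in each and a threshold of 0.05. Standard errors are the log2 fold change over the root of F. A p not called adjusted is unadjusted. The test was tried on simulated counts. Alternatives were DESeq2 1.42.0, its size factors in edgeR, no filter, only the compared groups, litter or culture as a block, and leaving out each library or litter 3.

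The labels say that each replicate is 1 litter, so litter numbers pair the samples. The main fit has no term for this pairing, which only the fits with litter or culture as a block use. Deviations from group means correlated with r = 0.237 to 0.639 in 45 same-litter pairs and -0.544 to 0.310 in 90 other pairs.

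The members, the 5 pathway lists shown and the 11 marker lists were chosen with earlier results of these data known. Named are the 10 members, up to 6 called genes per pathway list by p, the 5 genes most correlated with Mylk, Rock1, Rock2 or Ppp1r14a (predicted genes left out), and smooth muscle markers. Some genes that this rule names are not reported here.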

Additional observations from a re-analysis of the deposited data

How the results depend on the processing

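Refits were followed for 68 results of the 10 genes, which do not cover every gene in every comparison. Of their 976 refitted log2 fold changes, 892 kept their direction and their side of the threshold, 13 passed it newly, 1 lost it and 70 changed sign. The 70 sign changes are all of values that did not pass the threshold in either fit, most of them close to 0; the cause was not tested. Without litter 3 the log2 fold changes that turned were 0.0454 for Rock1, 0.018 for Cdc42bpa and -0.0916 for Cdc42bpb with Mylk-shRNA against scramble-shRNA in positive cells; -0.123 for Rock2, 0.167 for Dapk3, -0.139 for Cdc42bpb and -0.049 for Ppp1r12a with Mylk-shRNA in negative cells. The others were 0.00765 for Mylk, 0.079 for Rock1 and 0.027 for Ppp1r14a with Rock1/2-shRNA in positive cells; -0.0227 for Cdc42bpb, -0.0151 for Ppp1cb and 0.141 for Ppp1r12b with Rock1/2-shRNA in negative cells; 0.0552 for Mylk for the difference of the fraction effect with Rock1/2-shRNA. Rock2 with Mylk-shRNA in positive cells turned to -0.000897 with only the compared groups, and Cdc42bpb with Rock1/2-shRNA in negative cells to -0.00392 without a filter. Dapk3 with Mylk-shRNA in negative cells turned to 0.00494 in DESeq2 and to 0.0187 with litter as a replicate block. Leaving out 1 library at a time gave log2 fold changes with Mylk-shRNA against scramble-shRNA in positive cells of -0.103 to 0.12 for Rock1, -0.0608 to 0.116 for Rock2, -0.134 to 0.0299 for Dapk3, -0.0502 to 0.09 for Cdc42bpb and -0.0277 to 0.198 for Ppp1r12a. By the same refits with Mylk-shRNA in negative cells came -0.0413 to 0.213 for Mylk, -0.106 to 0.241 for Rock2, -0.13 to 0.153 for Dapk3, -0.107 to 0.232 for Cdc42bpb, -0.236 to 0.0799 for Ppp1cb, -0.163 to 0.337 for Ppp1r12a and -0.153 to 0.354 for Ppp1r12b. By the same refits with Rock1/2-shRNA in positive cells came -0.171 to 0.0516 for Rock1, -0.159 to 0.0189 for Cdc42bpa, -0.131 to 0.0179 for Cdc42bpb, -0.0496 to 0.258 for Ppp1cb and -0.0897 to 0.0144 for Ppp1r14a. By the same refits with Rock1/2-shRNA in negative cells came -0.159 to 0.00753 for Rock2, -0.0708 to 0.0831 for Cdc42bpb, -0.125 to 0.135 for Ppp1cb, -0.177 to 0.074 for Ppp1r12a and -0.273 to 0.168 for Ppp1r12b. By the same refits between fractions came -0.0257 to 0.0908 for Ppp1cb and -0.00854 to 0.158 for Ppp1r12a. By the same refits for the difference of the fraction effect with Rock1/2-shRNA came -0.162 to 0.11 for Mylk. 

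Of the 10 genes, 2 passed between fractions with scramble-shRNA without litter 3, where 16.7% of all genes passed. When 1 library was left out 1 to 2 of the 10 passed, where 1182 to 2177 of all genes did. Dapk3 was the second, without scramble-shRNA negative replicate 3. The count over all genes between fractions, 2032, 2186 and 1859 with scramble-shRNA, Mylk-shRNA and Rock1/2-shRNA, was 3848, 4019 and 3369 with litter as a block, 3466, 3674 and 3026 with the culture as a block and 1698, 1303 and 1690 with only the compared groups. Leaving out 1 library moved it by over 1.5 times in 5 cases: 1184 without scramble-shRNA positive replicate 2, 1182 without scramble-shRNA negative replicate 2, 1167 without Rock1/2-shRNA positive replicate 2, 1228 without Rock1/2-shRNA negative replicate 2 and 1416 without Mylk-shRNA positive replicate 1. The litter block brought Rock2 and Ppp1r12b past the threshold between fractions over the 3 vectors, as given above. It changed no other call among the 68 results followed. Rock2 also passed with the culture as a block, without litter 3, without scramble-shRNA positive replicate 3 and without Mylk-shRNA negative replicate 2 (adjusted p = 0.0195, 0.0343, 0.0413 and 0.0252), and Ppp1r12b without scramble-shRNA or Mylk-shRNA negative replicate 3 (0.0455 and 0.0401). Fits without a replicate in 1 group assume that the remaining libraries vary alike. No gene of 16544 passed between vectors in DESeq2 or with DESeq2's size factors. The loss of Dapk3 without a filter goes with 51841 genes tested in place of 16544. Depth limits Ppp1r12b, which had 18 to 63 counts per library and the widest interval in each comparison of a knockdown vector with scramble-shRNA.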

Other observations

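The genes whose patterns over the 18 libraries were most like that of Rock1 were Chd2 (r = 0.854), Ankhd1 (0.832), Brd1 (0.824), Prrc2c (0.822) and Nes (0.821). For Rock2 they were Brd1 (0.916), Sbno1 (0.890), Thoc2 (0.875), Arfgef1 (0.871) and Arid4b (0.870). Brd1, which encodes a chromatin reader, stands in both sets. With group means taken off, Brd1 (0.928) remained among the closest 5 of Rock2, beside Ddx46 (0.951), Ccdc88a (0.931) and U2surp (0.928), and the closest to Rock1 was Tle4 (0.917). Ddx46 and U2surp encode factors of transcript splicing. For Ppp1r14a the closest gene was then Zfp523 (0.884). These correlations are over libraries that share litters and cultures.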
